A study of Salmo salar with 64 samples.

Results

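The change in gene expression between T4 and T1 was compared between the pituitary and the liver of female Atlantic salmon. The comparison used 16 of the 64 RNA-seq libraries of the series, 4 per tissue and time point, and asked of every gene whether its log2 change in the pituitary minus its log2 change in the liver differed from 0. Of 81574 genes in the count table, 34157 had enough counts to be tested. Of these, 20770 averaged at least 1 CPM (count per 1000000 of the library's TMM-scaled total) in both tissues. The 4 groups were pituitary at T4, pituitary at T1, liver at T4 and liver at T1, each with replicates F1 to F4. All fish were female broodstock about 3 years after fertilization, held in tanks as one management group, and the labels name no gene alteration or drug treatment. T1 fish were taken just ahead of the switch to long days, a light signal used to start maturation, and T4 fish were the last of the groups taken afterwards, at 2 week intervals. Time under long days, age and season all differ between T4 and T1 and cannot be told apart.

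The pituitary is the gland below the brain that releases the hormones of the reproductive, thyroid, growth and stress axes. Its glycoprotein hormones, follicle-stimulating hormone, luteinizing hormone and thyroid-stimulating hormone, share an alpha subunit and differ in the beta subunit. The liver makes the fatty acids, sterols and plasma proteins that other tissues use, and in maturing female fish it also makes egg yolk and egg envelope proteins for the ovary. A gene that moves in only one of these tissues, or in opposite directions, gives a difference between the changes, while a gene that moves alike in both gives a difference near 0.

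Counted reads per library came to 23186932 to 26988130 in T4 pituitaries and 24830666 to 28918488 in T1 pituitaries, and to 32710144 to 34934085 in T4 livers and 20638203 to 23169283 in T1 livers. The 4 liver T4 libraries were not evenly spaced. Replicates 1 and 2 had 5 genes more than 4-fold apart and replicates 3 and 4 had 35, whereas the 4 other liver T4 pairs had 520 to 619 and the 18 pairs of the other 3 groups had 36 to 241. Both close pairs still differed by more than sampling noise, and each library was counted. Counting noise alone gives a median chi-square ratio of 1, and the close pairs had 2.75 and 4.69. The other liver T4 pairs had 7.21 to 13.4. Pituitary T4 replicates 3 and 4, the pair with 36 genes more than 4-fold apart, had a ratio of 2.92. Whether the close pairs came from separate fish cannot be told from the counts, and the p-values take each library as one fish. Leukocyte markers summed to 2386, 2247, 414.8 and 392.8 CPM in T4 livers, and to 411.7 to 662 CPM in T1 livers. The labelled tissues fitted their markers: 12 pituitary genes summed to 103100 to 150500 CPM in T4 pituitaries and 134000 to 173200 CPM in T1 pituitaries, and 27 liver genes to 155200 to 203700 CPM in T4 livers and 219400 to 241500 CPM in T1 livers. Each tissue also held a low level of the markers of the other. The 12 pituitary genes summed to 52.76 to 126.8 CPM in T4 livers, against 216.6 to 400.3 CPM in T1 livers, without overlap, and 2 of them were at 0 in both. The 27 liver genes summed to 441.4 to 1028 CPM in T4 pituitaries, against 876.3 to 1371 CPM in T1 pituitaries, with overlap, and 1 of them was at 0 in both. Ovary markers, 8 genes, summed to 2.009 to 5.604 CPM in T4 livers, against 9.661 to 15.35 CPM in T1 livers. Muscle markers, 9 genes, summed to 0.689 to 1.297 CPM in T4 livers, against 1.637 to 4.386 CPM in T1 livers. Neither sum overlapped, while brain, blood cell and exocrine pancreas markers overlapped between T4 and T1 livers.

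Fewer genes were called in the pituitary than in the liver. In the pituitary, 384 genes were higher (1.12%) and 129 lower (0.378%) at T4 than at T1, and in the liver 1926 were higher (5.64%) and 2471 lower (7.23%). A gene was called when its adjusted p in edgeR's quasi-likelihood test with Benjamini-Hochberg adjustment was under 0.05 and its log2 change passed 1 in size. The difference between the tissues was called for 2361 genes (6.91%), of which 1448 were positive, with the higher log2 change in the pituitary (4.24%), and 913 negative, with the higher log2 change in the liver (2.67%). A positive difference can come from a rise in the pituitary, a fall in the liver or both. Among the genes that averaged at least 1 CPM in both tissues, 654 differences were positive and 784 negative. Counts leaned on single libraries. The pituitary calls numbered 1049 without pituitary T4 replicate 1 and 189, 293 and 204 without pituitary T4 replicates 2, 3 and 4, and 106 and 259 without pituitary T1 replicates 1 and 2. The positive differences numbered 903, 947 and 2300 without liver T4 replicates 2, 3 and 4, and 962 when the close liver T4 libraries were summed in pairs.

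**Figure D1:**
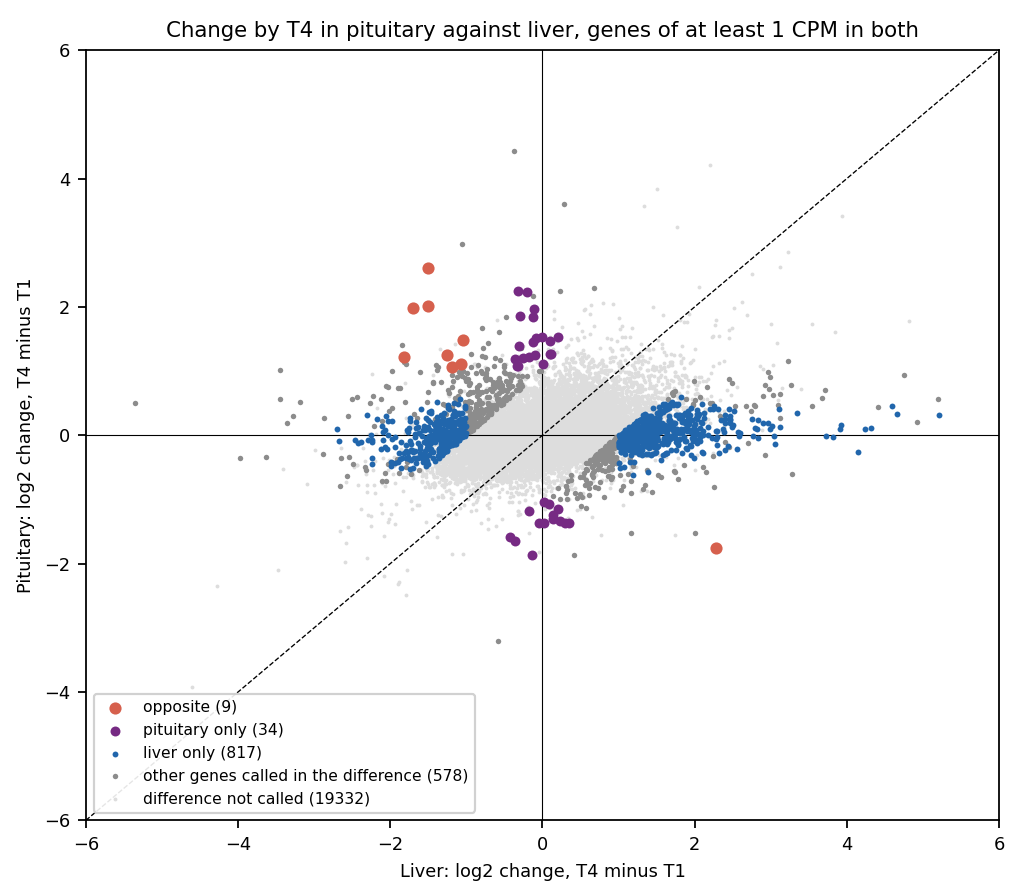
Log2 change, T4 minus T1, in the pituitary (y axis) against that in the liver (x axis) for the 20770 genes with at least 1 CPM in both tissues, coloured by class. The 34 pituitary only genes lie along the vertical line through 0, the 817 liver only genes along the horizontal line, and the 9 opposite genes in the upper left and lower right, and the dashed diagonal marks an equal change. The axes leave out 4 genes.

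The called genes were sorted by what each tissue did on its own. A gene was opposite when called in both tissues with unlike signs. It was pituitary only, or liver only, when called in that tissue while the 95% interval of the other tissue's log2 change lay within 1 of 0, which leaves room for a smaller change there. Of the 2361 genes, 9 (0.3812%) were opposite, 34 (1.44%) pituitary only and 817 (34.6%) liver only. One gene, LOC100380757, was called higher in both tissues, by 1.16 in the pituitary and 3.23 in the liver on the log2 scale. A further 577 were not resolved, because neither rule held. The remaining genes averaged under 1 CPM somewhere, 187 in the pituitary, 575 in the liver and 161 in both, and are given apart. The T4 and T1 libraries did not overlap in 30 of the 34 pituitary only genes and 784 of the 817 liver only genes, in the tissue where each was called, and did not overlap in either tissue in 4 of the 9 opposite genes. Since only 6.91% of all genes were called in the difference, and each class was cut from those calls, these shares describe the classes and do not test them. The same libraries made the calls, which favours groups without overlap, and the share without overlap over all genes is not given here. Pituitary only and liver only genes named below for the size of their difference were picked among those without overlap in the tissue called.

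Thyroid-stimulating hormone beta, tshba, was the opposite gene with the best known role in the pituitary. It had 18629, 13617, 25986 and 16167 CPM in T4 pituitaries, against 4332, 3226, 9822 and 1429 CPM in T1 pituitaries, without overlap, and 5.89, 6.99, 6.15 and 10.5 CPM in T4 livers, against 31.1, 20.04, 36.97 and 7.72 CPM in T1 livers, where the lowest T1 library lay inside the T4 range. Its log2 change was 1.98 ± 0.51 (SE) in the pituitary (adjusted p = 0.041) and -1.70 ± 0.52 in the liver (adjusted p = 0.020), a difference of 3.68 (adjusted p = 0.0045). LOC106610036, which RefSeq gives no other symbol, differed most of the 9. It had 8092, 8813, 12008 and 8319 CPM in T4 pituitaries, against 1929, 1325, 1578 and 1315 CPM in T1 pituitaries, and 4.43, 3.79, 3.47 and 9.54 CPM in T4 livers, against 19.01, 17.8, 16.2 and 7.197 CPM in T1 livers. The T4 pituitaries all lay above the T1 pituitaries, and T4 liver replicate 4 lay above the lowest T1 liver. Its difference was 4.10 ± 0.47 (adjusted p = 1.4e-04), from 2.60 in the pituitary and -1.51 in the liver. The liver level of both genes was under 1% of the pituitary level, 0.134% for tshba and 0.187% for LOC106610036. Pituitary markers were also lower in T4 livers. Of the 12, 8 are the hormone genes themselves, tshba among them. The 11 other than tshba summed to 47.53 to 123 CPM in T4 livers, against 206.2 to 377.2 CPM in T1 livers, whereas the 4 that are not hormones summed to 0.898 to 1.44 CPM in T4 livers, against 0.606 to 1.99 CPM in T1 livers, with overlap (both scaled with the T2 and T3 libraries). The 2 markers at 0 in livers were among these 4, as each hormone gene had counts there, so this sum rests on few genes. Of 10 pituitary transcription factor genes, 9 had liver levels under 1% of the pituitary level. In the liver edgeR called 3 of the 10 lower and 0 higher, DESeq2 3 lower and limma 0. The part of pituitary signal in the liver values was not tested. In bulk tissue, fewer cells of a type and less RNA per cell cannot be told apart.

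**Figure D2:**
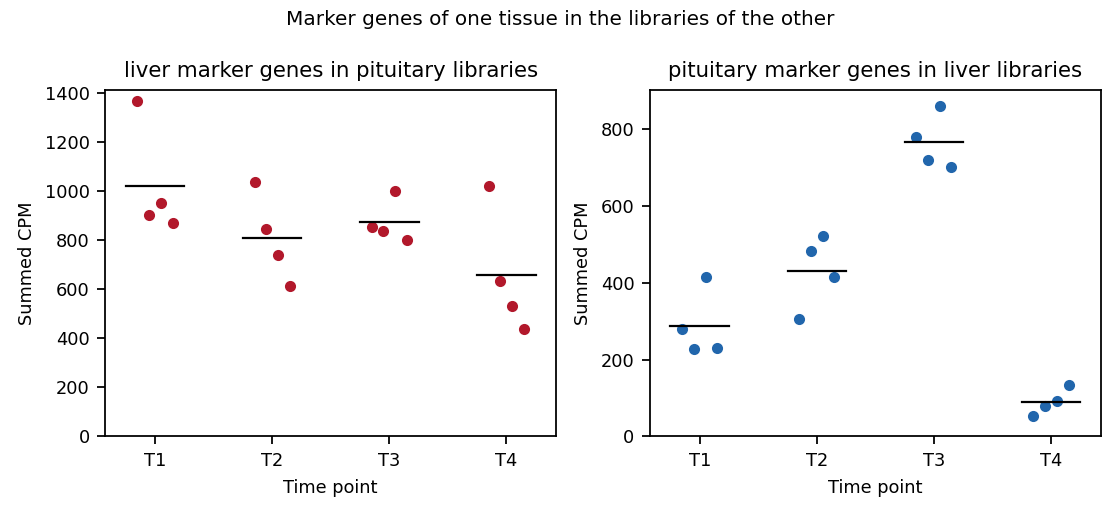
Summed CPM of marker genes of one tissue in the libraries of the other at T1, T2, T3 and T4, 4 libraries each, with the mean as a bar. The 12 pituitary markers in the liver ran at 227.2 to 415.6 CPM at T1, were highest at T3, at 702.4 to 860.9 CPM, and lowest at T4, at 53.5 to 134.1 CPM, and the 27 liver markers in the pituitary overlapped between all time points.

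Scaled with the T2 and T3 libraries, the 12 pituitary markers in the liver ran at 227.2 to 415.6 CPM at T1, 306 to 521.6 CPM at T2, 702.4 to 860.9 CPM at T3 and 53.5 to 134.1 CPM at T4. Liver tshba stood at 0.61, 1.39 and -1.71 from T1 on the log2 scale at T2, T3 and T4, and liver LOC106610036 at 0.55, 1.05 and -1.52, and the 11 markers other than tshba ran at 206.2 to 377.2 CPM at T1, 277.4 to 487.4 CPM at T2, 652.3 to 769.5 CPM at T3 and 47.53 to 123 CPM at T4. These sums are nearly all other hormone genes, and the 4 markers that are not hormones averaged 1.07, 1.36, 1.77 and 1.196 CPM at T1, T2, T3 and T4. The liver median of the 10 pituitary transcription factor genes stood at 0.16, 0.71 and -0.58 from T1 at T2, T3 and T4. Over all genes it stood at -0.05, -0.02 and -0.06. In the pituitary, tshba stood at 1.41, 1.43 and 1.98 and LOC106610036 at 2.35, 2.17 and 2.59, above T1 at each time. The other 7 opposite genes kept the sign of both tissues at T2 and T3. These values share their T1 libraries and carry no test.

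The only opposite gene that fell in the pituitary and rose in the liver was arl13a, which encodes a small GTPase of the ARF-like family. It had 1.34, 0.314, 0.662 and 0.28 CPM in T4 pituitaries, against 2.65, 2.01, 1.78 and 2.33 CPM in T1 pituitaries, and 4.12, 3.75, 3.98 and 1.55 CPM in T4 livers, against 0.493, 0.917, 0.696 and 0.648 CPM in T1 livers. The groups did not overlap in either tissue, at levels of a few CPM. The log2 change was -1.76 ± 0.42 in the pituitary (adjusted p = 0.032) and 2.27 ± 0.45 in the liver (adjusted p = 0.0012), and the difference was -4.03 (adjusted p = 9.0e-04). Measured against T1 at T2, T3 and T4, pituitary arl13a stood at -1.60, -1.70 and -1.77, and liver arl13a at 2.96, 2.01 and 2.24.

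Of the other opposite genes, all higher in the pituitary and lower in the liver, igsf21a encodes a cell surface protein of the immunoglobulin superfamily. It had 5.02, 5.86, 4.52 and 3.59 CPM in T4 pituitaries, against 1.43, 1.52, 3.08 and 0.756 CPM in T1 pituitaries, and 0.901, 0.585, 0.709 and 1.21 CPM in T4 livers, against 1.55, 1.899, 1.67 and 1.88 CPM in T1 livers, without overlap in either tissue. Its log2 change was 1.48 in the pituitary (adjusted p = 0.023) and -1.04 in the liver (adjusted p = 0.036), and its difference was 2.52 ± 0.48. LOC106603311 had 3.65, 1.83, 1.32 and 1.605 CPM in T4 pituitaries, against 0.903, 0.81, 0.956 and 0.902 CPM in T1 pituitaries, and 5.13, 4.06, 3.27 and 8.07 CPM in T4 livers, against 17.6, 14.3, 22.2 and 18.4 CPM in T1 livers, again without overlap. The 4 livers at T4 were all below the 4 at T1 while the pituitaries were in the reverse order, for a difference of 3.05 ± 0.43. The Eph receptor epha4b, a receptor for ephrins on neighbouring cells, had 5.36 to 9.81 CPM in T4 pituitaries, against 2.21 to 5.87 CPM in T1 pituitaries, and 17.9 to 35.2 CPM in T4 livers, against 44.3 to 57.8 CPM in T1 livers. Its T4 and T1 values overlapped in the pituitary but not in the liver, and its difference was 2.17 ± 0.38. The differences of LOC106578860, LOC106566486 and the gene numbered 106566339, which has no symbol in RefSeq, were 3.52, 2.49 and 2.24.

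**Figure D3:**
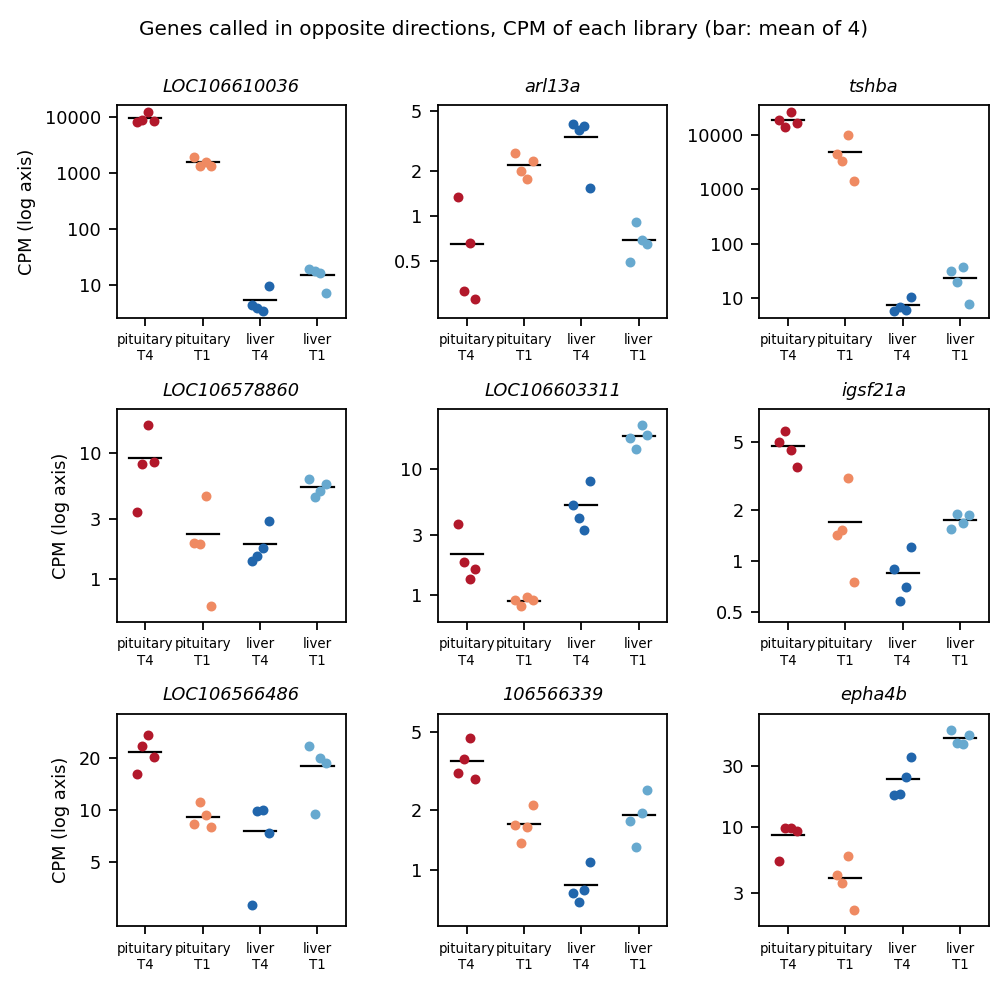
CPM of each library (points, log axis) and the mean of 4 (bar) for the 9 genes called in opposite directions, in T4 and T1 pituitaries and T4 and T1 livers. Of the 9, 8 rise in the pituitary and fall in the liver and arl13a does the reverse, and LOC106610036 and tshba have liver levels under 1% of those in the pituitary.

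The difference between tissues was called for each of these 9 genes without any one of the 16 libraries, but the class rests on 2 further calls. Of the 9, 2 kept the opposite class with limma-trend, arl13a and LOC106610036, and 4 with a block of tissue and number. That block ties T1 to T4 libraries of one number within a tissue. These came from different fish, so it matches no pairing in the design. In the fit over 48 libraries 5 kept the opposite class, and 6 with the liver T4 libraries summed in pairs. The class of tshba did not hold with that block, with limma-trend or with the summed pairs. The fit over 48 libraries ended it for arl13a, igsf21a, epha4b and 106566339, and RLE scaling for LOC106603311. In the 16 fits that left out 1 library, LOC106610036 stayed opposite in all 16, 106566339 in 11 and arl13a in 10. LOC106603311 and epha4b stayed opposite in 3 each and tshba in 4. Leaving out pituitary T1 replicate 1 or 2 left 1 opposite gene, and leaving out pituitary T4 replicate 1 gave 17. Without pituitary T4 replicates 2, 3 and 4 there were 2, 5 and 4, without liver T4 replicates 1, 2 and 3 there were 4, 5 and 5, and without liver T1 replicates 2, 3 and 4 there were 5, 4 and 4.

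Of 8 pituitary hormone genes, the difference was called for 3, all positive, against 4.24% of all genes, and the median difference was 1.88, against 0.08 over all genes. All 8 had liver levels under 1% of the pituitary level, and edgeR called 5 of them lower in the liver, against 7.23% of all genes. DESeq2 also called 5 lower there, and limma 1. These 8 genes make up nearly all of the pituitary marker sum, so its fall in the liver is the same observation. The glycoprotein hormone alpha gene glha2 had 5563, 6836, 7847 and 5503 CPM in T4 pituitaries, against 2511, 3227, 4669 and 1637 CPM in T1 pituitaries, without overlap, though its own change of 1.10 ± 0.36 was not called (adjusted p = 0.091). It had 3.36, 3.86, 2.92 and 7.61 CPM in T4 livers, against 12.4, 14.7, 14.8 and 4.99 CPM in T1 livers, and its difference was 2.50 (adjusted p = 0.0066). The second alpha gene, glha1, had a difference of 1.90 (adjusted p = 0.041), with 0.67 in the pituitary and -1.23 in the liver, and was not called without any one of 12 of the 16 libraries, at 1.46 to 2.01, or with the fish number as a block across tissues, at 1.89. The beta subunit of follicle-stimulating hormone, fshb, varied widely among fish of one group, with 1872, 3269, 61.2 and 89.98 CPM in T4 pituitaries, against 223, 536, 608 and 620.2 CPM in T1 pituitaries. Its log2 change of 1.41 ± 0.91 (adjusted p = 0.38) and its difference of 2.56 ± 1.58 (adjusted p = 0.31) were not called. The luteinizing hormone subunit lhb had 399.9, 657, 468 and 407 CPM in T4 pituitaries, against 137, 272, 247 and 52.5 CPM in T1 pituitaries, without overlap, with a log2 change of 1.45 ± 0.42 (adjusted p = 0.065) and a difference of 1.86 (adjusted p = 0.15). The somatolactin gene smtlb was called lower in both tissues, with log2 changes of -1.58 in the pituitary and -1.93 in the liver. Its liver values were 0.208, 0.172, 0.591 and 0.502 CPM at T4, against 1.62, 0.197, 2.72 and 1.04 CPM at T1. They overlapped, averaged 0.88 CPM and rest on as few as 3 counts in a library. The difference of smtlb was 0.35 (adjusted p = 0.81), and -0.86 with limma-trend. The differences of pomca, the precursor of adrenocorticotropic hormone, and of prolactin, prl, were 1.64 ± 0.81 and 1.60 ± 1.30, and neither was called.

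The 34 pituitary only genes comprised 20 that rose and 14 that fell at T4. Among the risers with the largest differences, entpd8, an enzyme that splits nucleotides outside the cell, had 0.856, 1.805, 2.398 and 2.67 CPM in T4 pituitaries, against 0.262, 0.389, 0.77 and 0.174 CPM in T1 pituitaries. In the liver it had 22.7 to 26.3 CPM in T4 livers, against 29.05 to 32.3 CPM in T1 livers, a log2 change of -0.32 with a 95% interval of -0.85 to 0.20, against 2.25 ± 0.35 in the pituitary. Its liver values were lower at T4 without overlap, though not called (adjusted p = 0.34). The procollagen C-endopeptidase enhancer pcolce2b, which acts in collagen maturation, had 8.53, 8.55, 10.8 and 11.3 CPM in T4 pituitaries, against 1.95, 1.23, 3.74 and 1.37 CPM in T1 pituitaries. In the liver it had 3.64 to 5.86 CPM in T4 livers, against 2.53 to 7.13 CPM in T1 livers, and the tissues' log2 changes were 2.23 in the pituitary and -0.20 in the liver, a difference of 2.43 ± 0.46 (adjusted p = 0.0036). As the choice of named genes required, the T4 and T1 pituitaries did not overlap for either gene. For pcolce2b the livers overlapped.

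The mitochondrial glycine cleavage protein H gene gcshb had 16.9, 17.6, 25.2 and 19 CPM in T4 pituitaries, against 5.97, 3.86, 8.33 and 3.64 CPM in T1 pituitaries. Its liver values were 243 to 354 CPM in T4 livers, against 248 to 390.4 CPM in T1 livers, so that a rise of 1.85 ± 0.24 in the pituitary (adjusted p = 0.0015) stood against -0.12 ± 0.23 in the liver. The scaffold protein gene kidins220a, which acts in neurotrophin signalling, had 9.16, 12.7, 16.7 and 13.04 CPM in T4 pituitaries, against 4.28, 5.77, 4.83 and 3.08 CPM in T1 pituitaries. Its liver values, 139 to 169.6 CPM in T4 livers, against 146 to 196 CPM in T1 livers, overlapped, and its log2 change was 1.52 ± 0.19 in the pituitary and -0.08 ± 0.18 in the liver. Both were at low levels in the pituitary beside the liver, 4.15% for gcshb and 5.51% for kidins220a. The liver markers in the pituitary summed to 441.4 to 1028 CPM at T4 and 876.3 to 1371 CPM at T1, with overlap. The part of liver signal in the pituitary values of these 2 genes was not tested.

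Among the fallers, ybx2a, a Y-box nucleic acid binding protein known in mammals from germ cells, had 8.59, 3.82, 5.49 and 5.27 CPM in T4 pituitaries, against 14.6, 16.1, 11.997 and 17.3 CPM in T1 pituitaries. In the liver it had 101 to 136 CPM in T4 livers, against 78.1 to 100.4 CPM in T1 livers. Its log2 change was -1.37 ± 0.19 in the pituitary and 0.35 ± 0.18 in the liver, and the difference was -1.72 (adjusted p = 0.0010), the liver values being higher at T4 without overlap. The gene ret1 had 58.3, 38.9, 26.8 and 19.8 CPM in T4 pituitaries, against 106, 84.3, 98.6 and 75.8 CPM in T1 pituitaries, and 99.3 to 125 CPM in T4 livers, against 86.8 to 104 CPM in T1 livers, with a difference of -1.57 ± 0.33 (adjusted p = 0.0065). For gys2, the liver form of glycogen synthase, pituitary values were 2.25, 0.811, 1.93 and 1.78 CPM in T4 pituitaries, against 6.29, 5.05, 4.3 and 5.53 CPM in T1 pituitaries. Its liver values were 77.9 to 94.2 CPM in T4 livers, against 98.9 to 123 CPM in T1 livers, and its log2 change was -1.64 ± 0.21 in the pituitary and -0.36 ± 0.18 in the liver. The groups did not overlap in either tissue, and the liver change was not called (adjusted p = 0.14). The pituitary level of gys2 was 3.53% of the liver level, and the summed liver markers in the pituitary were also lower on average at T4, whose part in this fall was not tested. LOC100195288 changed by -1.87 ± 0.34 in the pituitary, where it had 0.654 to 1.598 CPM in T4 pituitaries, against 2.68 to 6.44 CPM in T1 pituitaries, and its difference of -1.74 (adjusted p = 0.022) became -1.63 and was no longer called without liver T1 replicate 1. The inhibitor of the kinase PAK4, inka1b, had a difference of -1.39 (adjusted p = 0.025), which was not called without any one of 4 libraries, at -1.33 without pituitary T4 replicate 4, -1.26 without pituitary T1 replicate 1, -1.25 without liver T4 replicate 3 and -1.28 without liver T1 replicate 4.

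**Figure D4:**
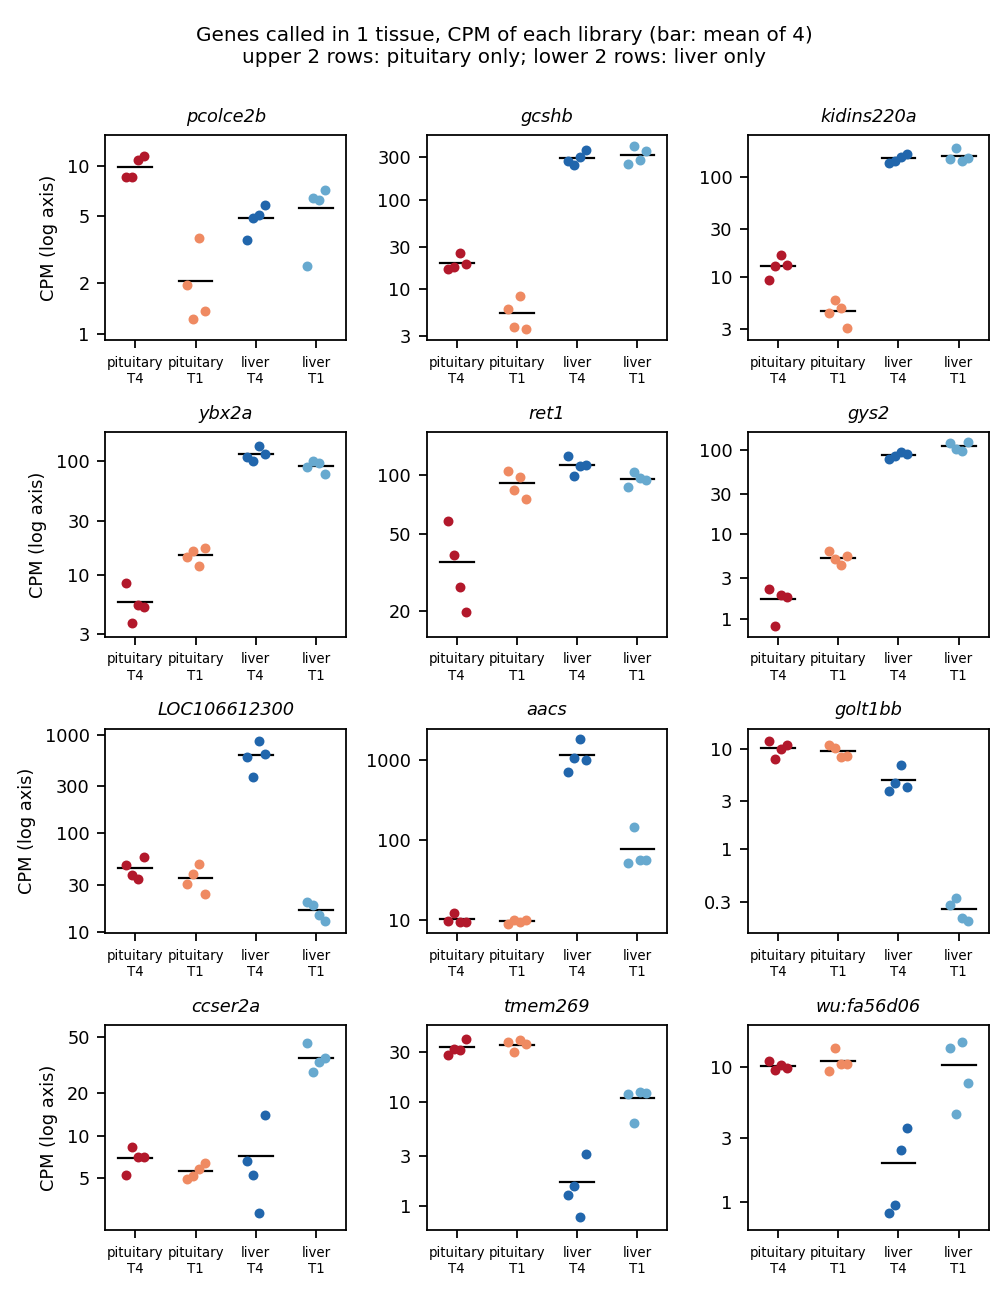
CPM of each library (points, log axis) and the mean of 4 (bar) for genes called in one tissue only, in T4 and T1 pituitaries and T4 and T1 livers. The upper 2 rows hold pituitary only genes, whose T4 and T1 values lie farther apart in the pituitary than in the liver, and the lower 2 rows hold liver only genes, for which the liver values lie farther apart.

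In 10 of the 34 pituitary only genes the pituitary level was under 10% of the liver level, and the median gene of the class had 4.15 CPM in the pituitary and 12.6 CPM in the liver. The class numbered 70 without pituitary T4 replicate 1, 22 without pituitary T4 replicate 2 and 19 without pituitary T1 replicate 1, and 22 when the liver T4 libraries were summed in pairs.

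The 817 liver only genes comprised 510 that rose and 307 that fell at T4, at a median level of 9.75 CPM in the pituitary and 9.92 CPM in the liver. Of these, 52 had pituitary levels under 10% of the liver level and 27 liver levels under 10% of the pituitary level. The class numbered 1248 without liver T4 replicate 4. Acetoacetyl-CoA synthetase, aacs, which turns ketone bodies back into lipid precursors, had 9.45 to 12.3 CPM in T4 pituitaries, against 8.998 to 10.1 CPM in T1 pituitaries. Its liver values were 709, 1068, 1874 and 1018 CPM in T4 livers, against 51.5, 148, 56.2 and 56.1 CPM in T1 livers, and its difference was -3.81 ± 0.46. The T1 liver replicate 2 was the highest of its group, and still below every T4 liver. For golt1bb, a gene of vesicle transport at the Golgi, pituitary values were 7.95 to 11.9 CPM in T4 pituitaries, against 8.23 to 11.01 CPM in T1 pituitaries, and liver values were 3.78, 4.58, 6.85 and 4.18 CPM in T4 livers, against 0.282, 0.328, 0.209 and 0.195 CPM in T1 livers. Its difference was -4.13 ± 0.34, resting on 3 to 5 counts in each T1 liver. The 2 liver only genes with the largest differences, LOC106612300 and LOC106611710, have no further name. LOC106612300 had 34.6 to 57.7 CPM in T4 pituitaries, against 24.1 to 49.2 CPM in T1 pituitaries, and 591, 378, 866 and 639 CPM in T4 livers, against 20.3, 18.6, 15.04 and 12.9 CPM in T1 livers, with a log2 change of 0.32 in the pituitary and 5.21 in the liver, and LOC106611710 changed by -0.26 in the pituitary and 4.14 in the liver. The gene g12 changed by 0.16 in the pituitary and 3.92 in the liver.

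Among the liver only genes that fell, tmem269, a predicted membrane protein, had 28.02 to 39.96 CPM in T4 pituitaries, against 29.5 to 38.3 CPM in T1 pituitaries. Its liver values were 1.28, 1.55, 0.788 and 3.14 CPM in T4 livers, against 11.9, 6.29, 12.4 and 12.2 CPM in T1 livers, and its difference was 2.58 ± 0.39 (adjusted p = 8.9e-04). The gene ccser2a had 5.25 to 8.29 CPM in T4 pituitaries, against 4.89 to 6.43 CPM in T1 pituitaries, and 6.58, 5.23, 2.84 and 14.1 CPM in T4 livers, against 45.4, 28.1, 33.2 and 35.3 CPM in T1 livers, with a difference of 2.62 ± 0.46. The log2 change was -0.13 in the pituitary and -2.42 in the liver for wu:fa56d06, and 0.14 in the pituitary and -2.10 in the liver for arhg4.

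Sterol synthesis genes moved in the liver. Of 15 cholesterol synthesis genes, the difference was called for 10, all negative, against 2.67% of all genes, and 8 of the 10 were liver only. The median log2 change of the 15 was 0.13 in the pituitary and 1.65 in the liver, against 0.01 in the pituitary and -0.04 in the liver over all genes. The gene for hydroxymethylglutaryl-CoA synthase, hmgcs1, an early step of the pathway, had 14.8, 15.8, 14.1 and 13.9 CPM in T4 pituitaries, against 11.1, 11.05, 10.8 and 11.02 CPM in T1 pituitaries. In the liver it had 129, 162, 171 and 61.3 CPM in T4 livers, against 10.2, 22.9, 16.6 and 10.8 CPM in T1 livers. Neither tissue's groups overlapped, but the pituitary change of 0.41 ± 0.27 was not called (adjusted p = 0.39), and the difference between tissues was -2.70 ± 0.38. For idi1, which makes the building block for isoprenoid chains, pituitary values were 8.61 to 10.8 CPM in T4 pituitaries, against 8.99 to 10.4 CPM in T1 pituitaries, and liver values were 112, 102, 125 and 64.4 CPM in T4 livers, against 10.4, 27.97, 17.3 and 11.9 CPM in T1 livers. Its difference was -2.59 ± 0.35. Lanosterol synthase, lss, which closes the sterol rings, changed by 0.71 ± 0.43 in the pituitary and 3.71 ± 0.40 in the liver, and acat2, which joins acetyl-CoA units, by -0.17 ± 0.24 in the pituitary and 2.44 ± 0.25 in the liver. Differences that were not called included those of stard4, pmvk, mvk and srebf2, the gene for a regulator of the pathway, at -0.32 to 0.30. In the pituitary edgeR called 0 of the 15, with 2 at an unadjusted p under 0.05, and DESeq2 and limma also called 0.

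Of 18 fatty acid synthesis genes, the difference was positive and called for 1, against 4.24% of all genes, and negative and called for 7, against 2.67%, and 6 were liver only. The median log2 change was 0.09 in the pituitary and 0.98 in the liver. The desaturase gene fadsd6 had 52.02 to 62.1 CPM in T4 pituitaries, against 50.8 to 56.3 CPM in T1 pituitaries. Its liver values were 879, 945, 660.1 and 291 CPM in T4 livers, against 87.2, 86.2, 74.6 and 95.8 CPM in T1 livers, and its difference was -2.88 ± 0.35. The stearoyl-CoA desaturase scdb had 33.1 to 39.2 CPM in T4 pituitaries, against 31.99 to 40.9 CPM in T1 pituitaries, and 5564, 5867, 9797 and 6580.5 CPM in T4 livers, against 1434, 1964, 1335 and 1416 CPM in T1 livers, with a difference of -2.17 ± 0.27. The chain elongase elovl6 had 1.34 to 2.04 CPM in T4 pituitaries, against 1.22 to 2.01 CPM in T1 pituitaries, and 695, 523, 993 and 753 CPM in T4 livers, against 81.3, 212, 61.7 and 80.1 CPM in T1 livers, and its difference was -2.78 ± 0.49, at a pituitary level of 0.383% of the liver. Acetyl-CoA carboxylase, acaca, the first committed step of fatty acid synthesis, changed by 0.35 ± 0.22 in the pituitary and 2.13 ± 0.22 in the liver. The T1 liver replicate 2 again held the highest T1 value for scdb and elovl6. In 5 of the 18 genes, elovl6 among them, the pituitary level was under 1% of the liver level, and the part of the liver markers' signal in those pituitary values was not tested.

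**Figure D5:**
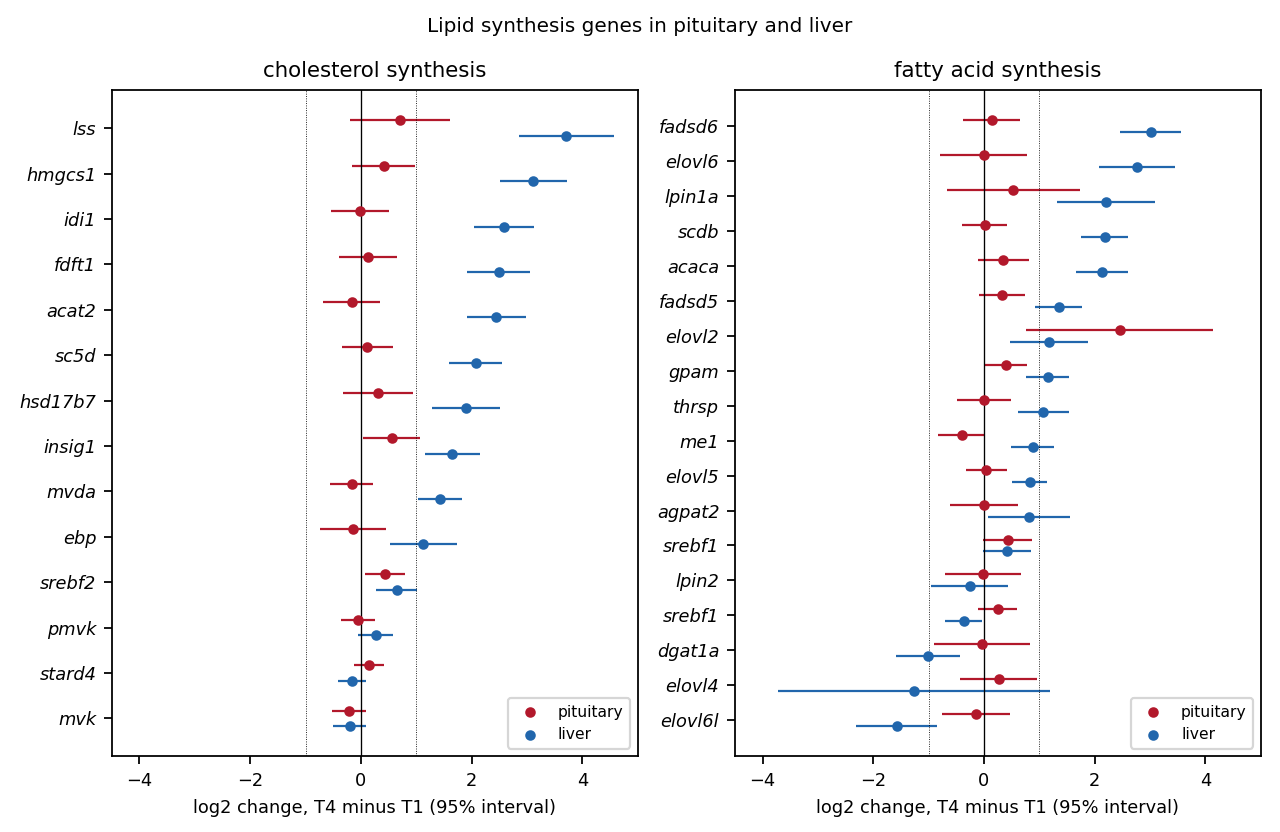
Log2 change, T4 minus T1 (x axis, point with 95% interval), in the pituitary and in the liver for the genes of cholesterol synthesis and of fatty acid synthesis that were tested, less 1 cholesterol synthesis gene that is not shown, srebf1 appearing as 2 entries of the count table. Pituitary points lie between -0.22 and 0.71 in the cholesterol panel. In the liver, 10 of 15 cholesterol synthesis genes and 9 of 18 fatty acid synthesis genes were called higher, against 5.64% of all genes.

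In gene groups outside lipid synthesis, called differences are read against 4.24% of all genes for positive and 2.67% for negative ones. At an unadjusted p under 0.05, 14 of 26 genes of protein folding in the endoplasmic reticulum had negative and 2 positive differences. The share of all genes at that level is not given here. A called difference was found for 3 of the 26, all negative. Among them, ddost, a subunit of the complex that adds sugar chains to new proteins, had 192 to 316 CPM in T4 pituitaries, against 238 to 313 CPM in T1 pituitaries, and 107, 78.4, 95.4 and 69.9 CPM in T4 livers, against 33.4, 33.01, 26.4 and 32.3 CPM in T1 livers, a difference of -1.75 ± 0.24. The stress-induced secreted protein gene manf had 78.4 to 115 CPM in T4 pituitaries, against 73.6 to 93.5 CPM in T1 pituitaries, and 69.2, 49.6, 58.1 and 39.7 CPM in T4 livers, against 13.3, 16.8, 13.9 and 17.5 CPM in T1 livers, a difference of -1.72 ± 0.24. The chaperone hsp90b1 had a difference of -1.12 (adjusted p = 0.018), which was -0.99 and not called without liver T4 replicate 2 and -0.90 and not called without liver T1 replicate 4. Of 13 proteasome genes, 1 had a positive difference, psmc2 at 1.17 in one of the 2 entries that share its gene number and -0.12 in the other, which was not called, and 2 had negative ones, psmd8 at -1.16 and psmc6 at -1.02. Without any one of pituitary T1 replicate 2, liver T4 replicate 3, liver T1 replicate 1 and liver T1 replicate 4, psmc6 was no longer called, at -0.97, -0.90, -0.92 and -0.96. At an unadjusted p under 0.05, 10 of the 13 had negative differences and 1 a positive one. The median difference of the 13 was -0.62, against 0.08 over all genes.

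Of 31 cell division genes, 4 had a positive difference, and edgeR called 0 negative ones, with 2 at an unadjusted p under 0.05 and 0 by DESeq2 and limma. In the pituitary 1 of the 31 was called higher, against 1.12% of all genes, and 0 lower, against 0.378%. In the liver 5 were called higher, against 5.64% of all genes, and 1 lower, against 7.23%. All 4 genes with a called difference, mcm6l, mcm4, mcm3l and mcm6, encode subunits of the replicative helicase or close relatives of them. Differences were 1.50 ± 0.31 for mcm4 and 1.27 ± 0.21 for mcm6, with pituitary changes of 0.52 and 0.39 and liver changes of -0.98 and -0.89, while mcm6l and mcm3l averaged under 1 CPM in the pituitary and mcm6l was not called without any one of 12 of the 16 libraries, at 2.28 to 2.71, or with the fish block, at 2.73. The median log2 change of the 31 genes was 0.62 in the pituitary and 0.61 in the liver. Of 7 thyroid axis genes, 1 had a positive difference, dio3b, the deiodinase that inactivates thyroid hormone, and 1 a negative one, thrsp, a thyroid hormone responsive protein of lipid synthesis. Pituitary values of dio3b were 6.08, 5.62, 2.37 and 2.14 CPM in T4 pituitaries, against 2.77, 3.01, 2.92 and 2.27 CPM in T1 pituitaries, and liver values 0.0346, 0.0344, 0.0788 and 1.76 CPM in T4 livers, against 9.79, 3.995, 2.297 and 3.89 CPM in T1 livers. The T4 livers were all below the T1 livers and the pituitaries overlapped, for a difference of 4.01 ± 1.05 (adjusted p = 0.021), which was 3.44 and not called without liver T1 replicate 1 and rests on as few as 1 count in a T4 liver. The thrsp difference was -1.07 ± 0.32 (adjusted p = 0.036), not called without any one of 9 of the 16 libraries, at -1.09 to -0.93, or with the fish block, at -1.10. The pituitary level of thrsp was 0.0554% of the liver level, and the part of liver signal in it was not tested. As thrsp is also on the fatty acid synthesis list, the same call is 1 of the 7 negative ones there.

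The egg envelope gene zpax1 was liver only, with 0.84 to 1.49 CPM in T4 pituitaries, against 1.41 to 1.94 CPM in T1 pituitaries, and 0.831, 1.17, 0.748 and 1.71 CPM in T4 livers, against 5.703, 3.603, 4.73 and 3.696 CPM in T1 livers, a difference of 1.57 ± 0.37, which was 1.58 and not called with a block of tissue and number and 0.95 and not called with limma-trend. It is also 1 of the 8 ovary markers, which summed to 2.009 to 5.604 CPM in T4 livers, against 9.661 to 15.35 CPM in T1 livers. The part of ovary signal in the liver values of zpax1 was not tested. The difference of the yolk precursor vtg3 was 0.85 (adjusted p = 0.86) and was not called. In the liver itself, edgeR called both zpax1 and vtg3 lower, against 7.23% of all genes, while DESeq2 and limma each called 1 of the 2. The pituitary level of vtg3 was under 1% of the liver level. Among reproductive receptor and steroid enzyme genes, 1 of 5 was called. Brain-type aromatase, cyp19a1b, which makes oestrogen from androgen, had 181, 349, 248 and 239 CPM in T4 pituitaries, against 106, 148, 133 and 198 CPM in T1 pituitaries, and 0.139, 0.172, 0.158 and 0.544 CPM in T4 livers, against 0.845, 0.983, 1.18 and 0.973 CPM in T1 livers. Its pituitary change of 0.80 ± 0.22 was not called (adjusted p = 0.058), its liver level was 0.312% of the pituitary level, and its difference was 2.80 ± 0.50, beside the fall of the hormone genes in the liver, and the part of pituitary signal in it was not tested. In the clock list, 1 of 16 genes, per3, a repressor of the clock, had a positive difference, at 1.00 (adjusted p = 0.034), not called without any one of 10 of the 16 libraries, at 0.76 to 1.03, or with the fish block, at 0.92. Of 24 genes of glucose breakdown and synthesis, 2 had a negative difference, tpi1b at -1.53 and gys2. Of 23 amino acid and one-carbon genes, 1 had a positive difference, mthfd2l at 1.30, not called without any one of 8 of the 16 libraries, at 1.03 to 1.30, and 3 had negative ones, bhmt at -2.33, psat1 at -1.47 and mthfd1b at -1.40. Without liver T4 replicate 2, psat1 was at -1.33 and not called. The pituitary level of bhmt was 0.142% of the liver level, and the part of liver signal in it was not tested. Of 10 stress response genes, atf3 was called at -2.69, and of 44 genes of mitochondrial respiration, atp5l at -1.11, which was -0.95 and not called without liver T4 replicate 3 and -1.0 and not called without liver T1 replicate 3. At an unadjusted p under 0.05, 12 of the 44 had negative differences and 1 a positive one. In the pituitary itself, 25 of the 44 were lower and 0 higher at that level. By edgeR, 0 differences were called among 23 fatty acid oxidation, 17 interferon response, 11 growth hormone and IGF axis and 10 pituitary transcription factor genes, with 4, 2, 2 and 1 at an unadjusted p under 0.05. DESeq2 called 1 interferon response gene and 1 growth hormone and IGF axis gene, and limma 1 transcription factor gene.

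The largest group of called genes under 1 CPM was low in the liver. In these 575 genes, the median level was 5.48 CPM in the pituitary and 0.254 CPM in the liver. Of them, 432 were called lower in the liver, against 7.23% of all genes, and the median liver log2 change was -1.96. They were chosen by a called difference and a low liver level, and could pass the count filter through their pituitary libraries alone. These values describe the class and do not test it. Of the 575, 520 had a positive difference, against 61.3% of all called differences, and 115 had liver levels under 1% of the pituitary level. Across all genes tested, 1969 had liver levels under 1% of the pituitary level. Their median log2 change was -0.62 in the liver and their median difference was 0.87, with 123 positive and 2 negative calls. Among the 31170 genes where neither tissue was under 1% of the other, 1293 positive and 886 negative differences were called, and these held 7 of the 9 opposite, 33 of the 34 pituitary only and 807 of the 817 liver only genes. The 187 genes low in the pituitary had 139 positive and 48 negative differences.

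Most calls made in one tissue were not matched by a called difference. Of the 513 genes called in the pituitary, the difference was called for 132 (25.7%), and of the 4397 called in the liver, for 1693 (38.5%). Of the pituitary calls, 232 averaged at least 1 CPM in the liver, and 168 of these (72.4%) had the same sign there. Of the liver calls, 3215 averaged at least 1 CPM in the pituitary, and 2246 of these (69.9%) had the same sign there. A gene called in one tissue and not in the other is therefore not shown to differ unless its difference was called. The same-sign share over all genes is not given here, so the same-sign shares above stand without a background. The pituitary and liver were called in the same direction for 43 genes with at least 1 CPM in both, 30 higher and 13 lower, and the difference was called for 1 of them. Chosen after their values were seen, the ubiquitin ligase rnf19a had 2.57, 11.8, 12.1 and 9.73 CPM in T4 pituitaries, against 1.02, 1.81, 1.33 and 3.14 CPM in T1 pituitaries, and 10.98, 12.8, 11.7 and 10.1 CPM in T4 livers, against 3.03, 1.64, 2.71 and 3.57 CPM in T1 livers. T4 pituitary replicates 2, 3 and 4 stood above the T1 pituitaries and replicate 1 within their range, whereas all T4 livers were above all T1 livers. The log2 changes were 2.31 in the pituitary and 2.06 in the liver for rnf19a, 1.34 in the pituitary and 1.46 in the liver for the cell cycle gene ccne2, and -1.85 in the pituitary and -1.19 in the liver for the nuclear receptor nr2f5.

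Both one-tissue classes were already apart from T1 before T4. The median log2 change from T1 of the 20 pituitary only risers was 1.04, 1.11 and 1.41 in the pituitary at T2, T3 and T4, and that of the 14 fallers was -1.19, -1.03 and -1.36. The 510 liver only risers stood at 1.82, 1.30 and 1.44 in the liver and the 307 fallers at -1.32, -0.93 and -1.36. The T4 and T1 libraries chose these genes, and the T2 and T3 values are set against the same T1 libraries, so these medians are a description. The median of the cholesterol synthesis list stood at 0.16, 0.05 and 0.12 in the pituitary at T2, T3 and T4, and at 2.08, 1.39 and 1.63 in the liver. That of the fatty acid synthesis list stood at 0.32, 0.18 and 0.08 in the pituitary and at 1.27, 1.47 and 0.96 in the liver.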

How the data were processed

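At each of 4 time points, 4 fish were sampled and several tissues were taken, and polyadenylated RNA was sequenced. Per the labels and the study's methods, the authors mapped paired reads to the ICSASG_v2 assembly with TopHat2 2.1.1, handled alignments with SAMtools 1.4 and counted uniquely mapped exon reads per gene with HTSeq 0.7.2 (reverse strand setting). The values analysed are the deposited raw counts, with no normalization. The authors also deposited a log2 table. The methods name FPKM for it, but its values equal log2(CPM + 1) of the counts. It served only in an alternative. No coordinate is given, because names come from RefSeq Ssal_v3.1, a different assembly, which named 91.3% of tested genes.

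Genes passing edgeR's filterByExpr were scaled by TMM and fitted with edgeR 4.0.16 (R 4.3.3, limma 3.58.1), 1 mean per group. Contrasts were T4 minus T1 in each tissue and pituitary minus liver, called at an adjusted p under 0.05 over all genes tested and a log2 value over 1 in size. CPM are counts per 1000000 of the TMM-scaled total. Libraries held 20638203 counted reads or more, and low genes still rest on few counts. The study sampled 4 fish per time point and took several tissues, so a number may mark the same fish across tissues, but the labels call it only a replicate. Unique mapping can lose reads of near-identical duplicated genes, which salmon has in numbers, and 24016 of the 81574 entries share a gene number with another.

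Named genes were the 4 with a RefSeq symbol and the 2 of any name with the largest difference per class and direction, among genes whose T4 and T1 libraries did not overlap in the tissues called, with up to 4 called members per list, and all pituitary hormones. The other opposite genes are given because the class is complete. Results of 3 genes are not reported here. The gene lists and comparisons were chosen with earlier results of these data known. Libraries of the same number correlated over 0.1 in 6 of 8 pairs between tissues. Within tissues, where T4 and T1 fish differ, 1 of 8 did. The study's methods state no block and not every pair between tissues exceeded 0.1, so the fit without a block was kept. The fish block is given where it ends a call. Alternatives changed the scaling, the tool (DESeq2 1.42.0, limma), the libraries fitted, filters, thresholds, depth and single libraries. The alternative that drops genes under 10% of the other tissue's level was chosen after seeing the data. Promoter motifs were not run here. Brain libraries were not used here, ovary libraries only in the alternative fitted over 48 libraries, and T2 and T3 libraries there and in the time courses.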

Additional observations from a re-analysis of the deposited data

Results flagged for a closer look

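The change by T4 differed between pituitary and liver for 2361 genes by the test of the difference itself. Of these, 9 were opposite, 34 pituitary only, 817 liver only and 1 in the same direction in both, 577 were not resolved, and 187 were low in the pituitary, 575 low in the liver and 161 low in both.

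Among 164 groups of 4 values, from the genes whose libraries are printed and the marker sums, 20 held a library whose gap to the next was large for its group by Dixon's criterion. For independent groups of normally distributed values, chance gives about 1 in 20. The 164 groups reuse the same libraries and CPM need not be normally distributed, so their count was not tested against that rate. T1 liver replicate 2 was the high value for aacs (147.51 CPM), elovl6 (211.89), scdb (1963.9), LOC100195288 (13.82) and fshb (4.65), and the low value for tmem269 (6.29). T4 liver replicate 4 was the high value for LOC106610036 (9.54 CPM), fshb (2.09), dio3b (1.76) and cyp19a1b (0.544), and the low value for arl13a (1.55). Replicate 3 was the low T1 library for ddost, at 238 CPM in the pituitary and 26.4 CPM in the liver. In T4 pituitaries, replicate 2 was high for aacs (12.3 CPM) and for the leukocyte marker sum (475.6 CPM) and low for the pituitary marker sum (103100 CPM), and replicate 1 was high for manf (115 CPM) and low for epha4b (5.36 CPM). In T1 pituitaries, replicate 2 was high for fadsd6 (56.3 CPM) and replicate 1 for the liver marker sum (1371 CPM).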

How the results depend on the processing

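With RLE scaling, the fit over 48 libraries, no filter on low counts, genes under 1% of the other tissue's level left out or libraries thinned to the smallest total, every count stayed within 1.5 times its value. The genes behind a count could still change. In the fit over 48 libraries, 5 of the 9 opposite, 23 of the 34 pituitary only and 662 of the 817 liver only genes kept their class. DESeq2 called 919 genes in the pituitary against 513, and 16 opposite genes against 9. limma-trend on the log2 table called 1453 differences against 2361, 824 against 1448 of them positive, with the higher change in the pituitary, 1682 against 4397 in the liver, 4 opposite, 39 against 34 pituitary only and 520 against 817 liver only genes. Of the main classes, it kept 2 of the 9 opposite, 17 of the 34 pituitary only and 410 of the 817 liver only genes. With the adjusted p alone, 4265 differences were called, 2188 positive and 2077 negative, with 1247 pituitary calls, 10971 liver calls, 56 opposite, 124 pituitary only and 2739 liver only genes. A minimum of 5 CPM left 4 opposite, 12 pituitary only and 453 liver only genes. With the liver T4 libraries summed in pairs, 962 differences were positive and 919 negative, so 51.1% of calls were positive against 61.3%, and 22 genes were pituitary only. For limma-trend and DESeq2 the cause was not tested. Without genes under 10% of the other tissue's level, chosen after seeing the data, 7 opposite, 24 pituitary only and 747 liver only genes were left.

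With the replicate number as a block, the fish block called 2019 differences (1168 positive and 851 negative), and the block of tissue and number 1774, with 279 pituitary calls and 5 opposite genes, 4 of them among the 9. The block of tissue and number ties T1 to T4 libraries of different fish and matches no pairing in the design. Numbers correlated over 0.1 in 6 of 8 pairs between tissues and 1 of 8 within tissues.

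Leaving out 1 library at a time gave 1712 to 3476 differences, 903 to 2300 positive and 763 to 1176 negative, 106 to 1049 pituitary calls, 3276 to 5983 liver calls, and 1 to 17 opposite, 19 to 70 pituitary only and 659 to 1248 liver only genes. Over 65 named genes and all settings, 1641 of 1740 differences stayed on their side of the threshold, 97 were no longer called and 2 (both lhb) became called. The sign changed for 1 gene, smtlb, which was not called, at -0.86 with limma-trend and -0.19 without liver T1 replicate 3, against 0.35. Named differences lost their call for glha1, thrsp, per3 and mcm6l with the fish block, for these and mcm3l, mthfd2l and zpax1 with the block of tissue and number, for hsp90b1, inka1b, LOC100195288 and per3 in the fit over 48 libraries, for mcm6l and per3 without a filter, for hsp90b1, mcm3l, mcm6l, mthfd2l, per3, psmc2, psmc6 and zpax1 with limma-trend, for glha1, inka1b, mthfd2l, per3 and thrsp with the liver T4 pairs summed, and for mcm3l after thinning. The median difference over all genes was 0.08, and 0.10 with DESeq2, 0.11 in the fit over 48 libraries and 0.11 without a filter. Thinned to the smallest total, 7 of the 9 opposite, 30 of the 34 pituitary only and 746 of the 817 liver only genes kept their class.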
